A study of Mus musculus with 6 samples.

Results

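Rnf183, Ppp1r14d, Apol8, Nppb, Itm2a and Shisa3 are 6 genes that were at least 5-fold higher in the forestomach epithelium of Sox2 mutant mice than in that of controls and that were grouped as lying outside the familiar gene programmes of squamous epithelium, a grouping made by general knowledge and not tested here. They were picked for that rise, on the mutant and control arrays described here. The ratio of mutant to control is therefore what chose them; it is given as a description, with no test. They are 6 of 20566 genes tested and are read by 8 of the 41174 probes on the array, 7 of which were bright enough to enter the comparison.

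The mutants were K5-CreER;Rosa26Sox2/Sox2 mice, which carry a Sox2 gene for induced expression on both copies of the Rosa26 locus, and the controls were K5-CreER mice. Both groups carried the tamoxifen-inducible Cre recombinase CreER under the keratin 5 promoter, which is active in basal cells of stratified epithelia, so Cre alone does not separate them. Mice of both genotypes were on a mixed 129/Sv and C57/BL6 background, were 7 weeks old when they received 2 tamoxifen doses, and are given as 12 weeks old in the labels. Sheets of forestomach epithelium from 3 mutant and 3 control replicates were profiled on 2-colour arrays, with the sample in Cy5 and a common reference, RNA of 11 mouse cell lines, in Cy3. The labels call the replicates biological but do not say whether animals were pooled, nor in what share of basal cells Cre had acted, so the p-values given cover the spread among these arrays, which may be partly technical.

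The 6 genes encode proteins of unrelated kinds. Nppb encodes B-type natriuretic peptide, a secreted hormone best known from heart muscle, which raises cyclic GMP in target cells through the receptor Npr1. Shisa3 belongs to a family of membrane proteins that, in the frog, hold Wnt and FGF receptors in the endoplasmic reticulum, and Itm2a is a membrane protein with a BRICHOS domain known from cartilage and lymphocytes. Rnf183 is a membrane-bound RING ubiquitin ligase, Ppp1r14d an inhibitor of protein phosphatase 1 found in gut and brain, and Apol8 a member of the apolipoprotein L family.

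A probe is a 60-base oligonucleotide, and its position decides which transcripts it can read. The probe sequences are shown because Nppb and Apol8 had 2 probes each, which gave like values for Nppb and unlike values for Apol8. Both Nppb probes are printed whole and the others by their first 30 bases, 5′ to 3′ in the sense of the transcript; the capitals in Nppb probe 1 mark the ATG at which the Nppb coding sequence starts.
Nppb probe 1: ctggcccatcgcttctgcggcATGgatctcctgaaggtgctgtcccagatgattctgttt
Nppb probe 2: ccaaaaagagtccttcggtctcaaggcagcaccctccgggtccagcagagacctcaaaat
Shisa3: catatactcatgtacttggcgacacaaaaa
Itm2a: tagatttctgaaagcagcatgaatgtgtca
Rnf183: gtgttgagctgtttgtgtgttgctgataat
Ppp1r14d: gatatggacaagggctgcagaagacaaaga
Apol8 probe 1: cagacgctgtggttcattcaggaccccagg
Apol8 probe 2: tctacagaacccatcgttatgaaagatgtc

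In the mm9 coordinates of the scanner files, Nppb probe 1 lies at chr4:147360064-147360123 and Nppb probe 2 at chr4:147360489-147360548, both on the plus strand, with starts 425 bases apart. The Shisa3 probe lies at chr5:68005102-68005161 on the plus strand. The remaining probes are on the minus strand: Itm2a at chrX:104592916-104592975, Rnf183 at chr4:62088647-62088706 and Ppp1r14d at chr2:119043955-119044014. Apol8 probe 1 lies at chr15:77580138-77580197 and Apol8 probe 2 at chr15:77578354-77578413, their starts 1784 bases apart. Along the Apol8 transcript that the files name, probe 1 starts at base 937 and probe 2 at base 2721, so they read different stretches of it.

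Each array carried strong signal of squamous epithelium, though the glandular stomach markers given below were also high on every array but control 3. All 7 markers of stratified squamous epithelium (Krt5, Krt14, Trp63, Krt13, Krt4, Ivl and Dsg3) were well above background on all 6 arrays, with mean log2 ratios of sample over reference of 3.51 to 3.87 in mutants and 4.08 to 4.70 in controls. None of the 7 passed the limma test, but all 7 were lower in mutants, with a median difference of -0.58 on the log2 scale. The largest was that of Ivl at -1.26 (limma adjusted p = 0.0614). The Sox2 probe did not mark the mutants: it averaged 5.82 ± 0.14 in mutants and 6.24 ± 0.15 in controls on the log2 scale (SD, n = 3 each; limma adjusted p = 0.143), and whether it reads the transgene was not tested. Gt(ROSA)26Sor, transcribed from the locus where the Sox2 gene was placed, averaged -2.65 ± 0.08 in mutants and 1.05 ± 0.23 in controls, with every mutant array below every control array. Mutants 2 and 3 were nearly identical to each other, as 0.104 log2 units was the scaled median of their absolute differences, as were controls 1 and 2 (0.156), against 0.326 to 0.730 for the other pairs. Control 3 was the dimmest array, with 62.6% of probes well above background against 73.1% to 76.2% on the others. The mutants shared slide 3, controls 1 and 2 slide 1, and control 3 was alone on slide 2, so a slide effect and a genotype effect cannot be told apart.

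All 6 genes were higher on every mutant array than on every control array, through 7 of their 8 probes. The rise that chose them exceeded 5-fold in 85 of the 20566 genes (0.413%), and separation in that direction was seen in 4022 of 20478 genes (19.6%; 37.9% counting either direction), so nothing further is read from either count. Ranked by fold, Shisa3 was gene 8, Itm2a 14, Nppb 20, Rnf183 25, Ppp1r14d 32 and Apol8 67. The median difference of the 6 genes, which their choice required to be large, was 3.53 on the log2 scale. Just inside the 5-fold line stood Ms4a6b at 5.08-fold, with 4.19 ± 0.45 in mutants and 1.84 ± 0.88 in controls on the log2 ratio scale. Just outside it stood Fcmr at 4.99-fold, with 2.36 ± 0.98 in mutants and 0.04 ± 0.25 in controls (SD, n = 3 each).

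**Figure D1:**
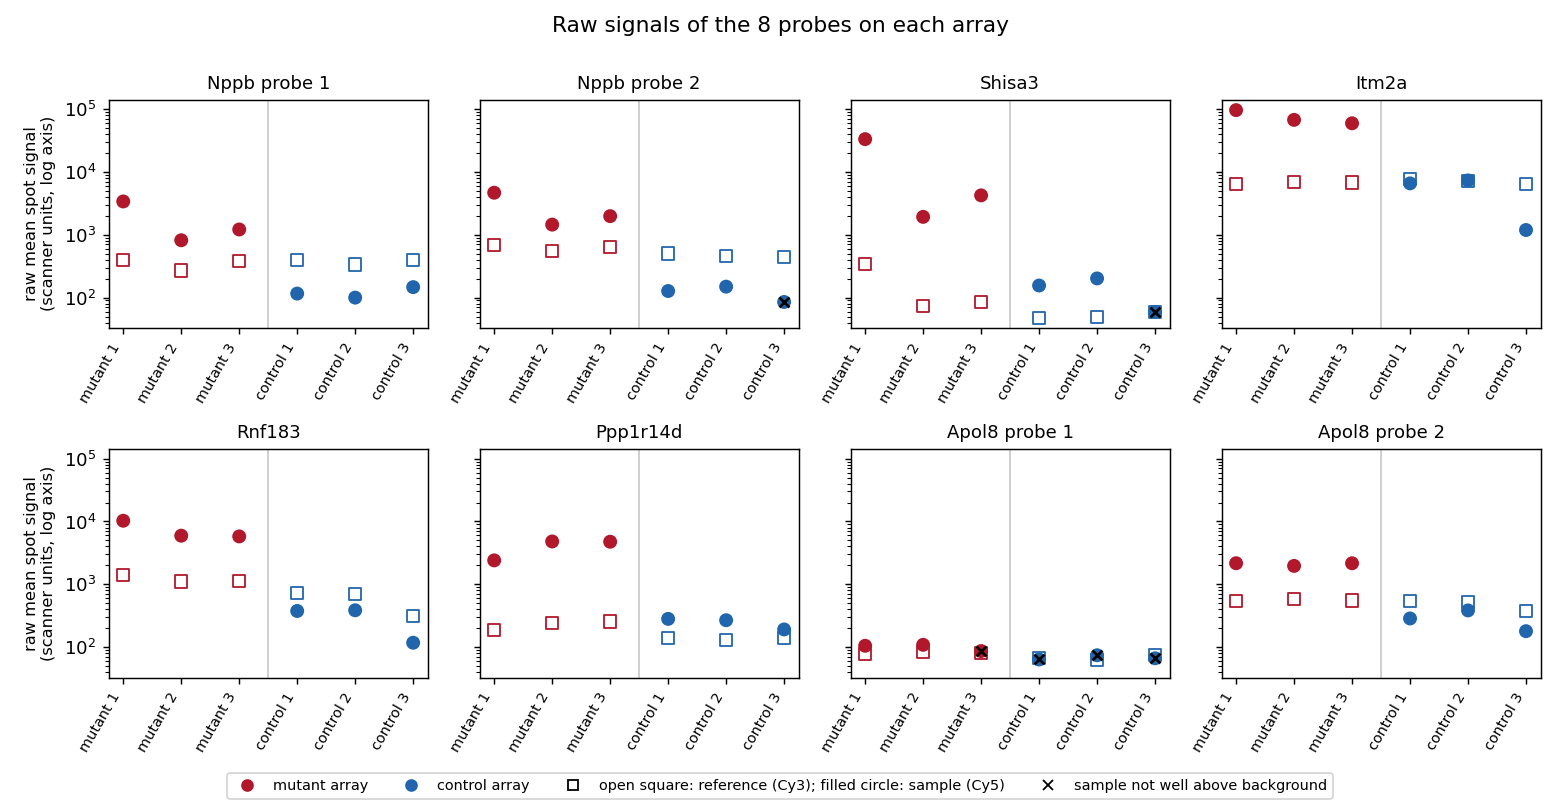
Raw mean signal of each probe on each array, on a log axis, with the sample channel (Cy5) and the reference channel (Cy3) side by side and mutant arrays left of control arrays. In the sample channel the mutant points lie above the control points for every probe, with the narrowest gap for Apol8 probe 1, while in the reference channel the groups lie close together for most probes.

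The secreted peptide comes first. On Nppb probe 2, which represents the gene, the raw sample signal was 4664, 1449 and 1978 on mutants 1, 2 and 3, against 127, 149 and 85.2 on controls 1, 2 and 3. The reference signal of the same spots was 680, 558 and 635 on the mutant arrays, against 502, 454 and 442 on the control arrays. The rise thus lay in the sample channel, with mutant 1 the highest, and control 3 was not well above background. Nppb probe 1, around the start codon, read 3386, 817 and 1213 on mutants 1, 2 and 3, against 116, 99.9 and 147 on controls 1, 2 and 3.

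Both Nppb probes put the arrays in nearly the same places. After background correction and loess, the log2 ratio of probe 2 was 2.72, 1.29 and 1.52 in the mutants, against -1.94, -1.74 and -1.77 in the controls, a mean of 1.84 ± 0.77 in mutants and -1.82 ± 0.10 in controls (SD, n = 3 each) and a 12.6-fold difference. Probe 1 averaged 1.98 ± 0.87 in mutants and -1.51 ± 0.49 in controls, an 11.2-fold difference. The ratios of the 2 probes differed by -0.03 to 0.26 on the mutant arrays and by -0.12 to 0.82 on the control arrays, the widest gap being on control 3. Without mutant 1, where Nppb was 1.32 log2 units above the mean of the other mutants, the difference on probe 2 was 9.33-fold.

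Among the membrane proteins, Shisa3 had the largest difference of the 6 and the widest spread among mutants. Its raw sample signal was 33207, 1925 and 4233 on mutants 1, 2 and 3, against 156, 202 and 59.3 on controls 1, 2 and 3. Mutant 1 was far above the other mutants, and control 3 was not well above background. The reference signal was 343, 73.5 and 86.4 on the mutant arrays, against 48.0, 49.5 and 59.2 on the control arrays, and was not well above background on mutant 2 or on any control. The ratio therefore has a weakly measured denominator on 4 of 6 arrays.

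On the log2 ratio scale Shisa3 averaged 5.33 ± 1.08 in mutants and 0.88 ± 0.60 in controls (SD, n = 3 each), a 21.8-fold difference. The array values were 6.48, 4.35 and 5.15 in mutants, against 1.07, 1.37 and 0.21 in controls. The fold depended on single mutants: it was 14.6 without mutant 1 and 30.5 without mutant 2. The sample channel alone, after loess and scaling of the arrays to one another, gave 38.6-fold. The reference signal, near background on 4 arrays, gives no exact fold of its own.

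Itm2a, the BRICHOS protein, was far above background on every array. Its raw sample signal was 96164, 67309 and 59337 on mutants 1, 2 and 3, against 6568, 7320 and 1189 on controls 1, 2 and 3. Control 3 was several-fold below the other controls, whereas the reference signal was 6444 to 6942 on the mutant arrays and 6507 to 7654 on the control arrays. The log2 ratio averaged 3.17 ± 0.46 in mutants and -0.78 ± 0.97 in controls (SD, n = 3 each), a 15.5-fold difference. Control 3 differed by -1.67 log2 units from the mean of the other controls, and without it the mutant minus control difference was 3.39 log2 units, against 3.95 with it.

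The enzyme and the inhibitor varied least among the controls. For Rnf183, the ubiquitin ligase, the raw sample signal was 10271, 5940 and 5786 on mutants 1, 2 and 3, against 376, 386 and 118 on controls 1, 2 and 3. Its reference signal was 1404, 1110 and 1144 on the mutant arrays, against 728, 692 and 315 on the control arrays. Both channels were thus higher on the mutant arrays. The log2 ratio averaged 2.46 ± 0.31 in mutants and -0.93 ± 0.07 in controls (SD, n = 3 each), a difference of 3.39 log2 units. The fold stayed between 9.28 and 11.4 with any 1 array left out.

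Ppp1r14d, the phosphatase inhibitor, had raw sample signals of 2404, 4807 and 4761 on mutants 1, 2 and 3, against 282, 268 and 191 on controls 1, 2 and 3. It was the exception among the mutants: mutant 1 was the lowest of the 3, while for the other 5 genes it was the highest on the log2 ratio scale. The log2 ratio was 3.54, 4.21 and 4.02 in mutants, against 0.79, 0.66 and 0.69 in controls. Means were 3.92 ± 0.35 in mutants and 0.71 ± 0.07 in controls (SD, n = 3 each), a 9.24-fold difference.

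**Figure D2:**
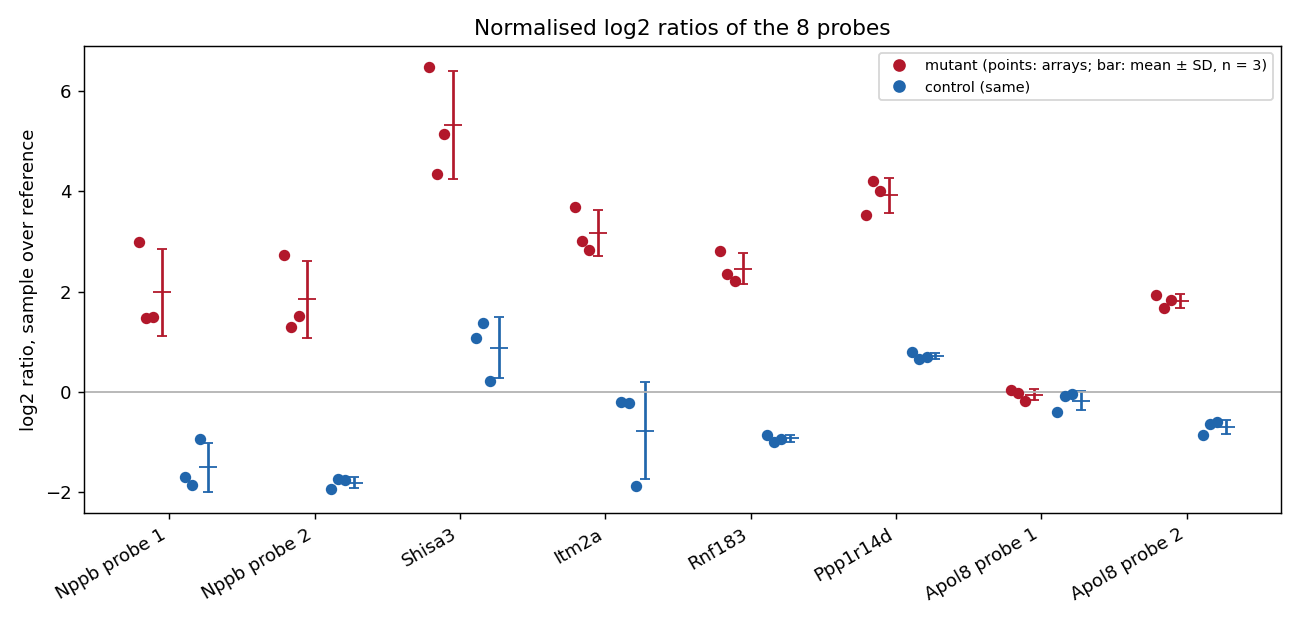
Log2 ratio of sample over reference for each probe, with mutant arrays left of control arrays, points for single arrays and bars for the mean ± SD of 3 arrays. Shisa3 spreads most among mutants (SD 1.08), Itm2a most among controls (SD 0.97), and Apol8 probe 1 is the 1 probe whose groups overlap.

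Apol8 had the smallest difference of the 6, and it was seen by 1 of its 2 probes. Probe 2 had raw sample signals of 2165, 1964 and 2162 on mutants 1, 2 and 3, against 286, 384 and 180 on controls 1, 2 and 3. The mutants stood close together and well apart from the controls, with log2 ratios averaging 1.81 ± 0.13 in mutants and -0.70 ± 0.14 in controls (SD, n = 3 each), a 5.70-fold difference. Probe 1 read 105.2, 109 and 86.8 on mutants 1, 2 and 3, against 63.7, 74.3 and 66.5 on controls 1, 2 and 3. It was well above background on 2 of 3 mutants and on none of the controls.

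On the ratio scale the groups overlapped on Apol8 probe 1, with -0.06 ± 0.11 in mutants and -0.18 ± 0.19 in controls. A probe this near background gives no exact fold and no firm bound, as mutant 3 was not well above background either. In the normalized sample channel, control 3 at 6.74 was above mutant 3 at 6.59 on the log2 scale. The rise of Apol8 accordingly rests on probe 2 alone. Which Apol8 transcripts each probe reads was not tested.

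The reference RNA is the same in every hybridisation, so its channel was compared between the groups too. After normalization, over all tested genes, the reference channel differed between mutant and control arrays by a median of -0.03 log2 units, with 5th and 95th percentiles of -0.37 and 0.35. Rnf183 at 0.80 and Shisa3 at 0.83 lay above that range, but the Shisa3 value came from mutant 1 and was 0.20 without it. Nppb probe 1 at -0.50 and Itm2a at -0.39 lay below the range, but without control 3 they were -0.25 and -0.16, inside it. Ppp1r14d at 0.26, Nppb probe 2 at 0.01 and Apol8 probe 2 at -0.14 lay inside it. No member reached 2-fold in the normalized reference channel, which 102 genes (0.496%) did. In raw reference signal Rnf183 was 2.11-fold higher on the mutant arrays, with control 3 at 315 below controls 1 and 2 at 728 and 692. The raw reference signal of Shisa3 was also higher on the mutant arrays. That rise came mainly from mutant 1, at 343 against 73.5 and 86.4 on mutants 2 and 3. Among genes whose ratio did not fall, a larger rise in the sample channel went with a larger median rise in the reference channel. The median was 0.08 for the 872 such genes up by at least 1 log2 unit in the sample channel. It was 0.44 for the 188 up by at least 2 and 1.01 for the 72 up by at least 3. Genes whose reference rose more than their sample were left out of these sets. Where both channels rise, the ratio is smaller than the rise in the sample, and for Rnf183 the sample channel alone gave 18.2-fold. Why both channels moved was not tested.

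**Figure D3:**
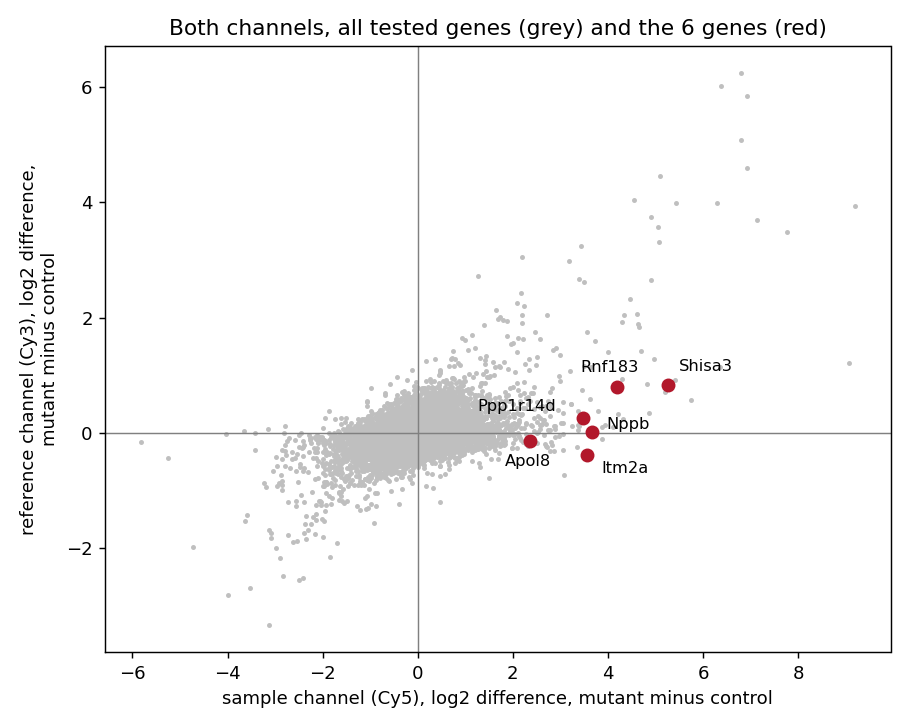
Difference of mutant minus control in the sample channel (horizontal, log2) and in the reference channel (vertical, log2) for every tested gene in grey and the 6 genes in red. The 6 lie far to the right with reference differences of -0.39 to 0.83, and some other genes that rose strongly reach higher reference differences.

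The 6 genes followed somewhat different patterns over the 6 arrays. By Euclidean distance between log2 ratio profiles centred on their own mean, a description that the rise common to all 6 dominates, the closest pair was Nppb and Rnf183 at 0.805, followed by Ppp1r14d and Rnf183 at 0.932. The farthest pair was Apol8 and Shisa3 at 2.88, the genes with the smallest and the largest difference. Among all other genes, the nearest to Nppb were Ccl20 at 0.386, a chemokine, Retnlg at 0.427 and Serpina3m at 0.584. Retnlg at 0.541 and Serpina3m at 0.688 were also 2 of the 3 nearest to Rnf183, with Cdkn1c at 0.625 between them. The nearest to Itm2a were Defb3, a defensin, at 0.979, Aldh1a3 at 1.00 and Cdkn1c at 1.13, and the nearest to Ppp1r14d were Camk2n2 at 0.694, Cyp2a22 at 0.739 and Tm4sf4 at 0.816. Apol8 was nearest to Slc6a14 at 0.468, Fbp1 at 0.541 and Serpina3n at 0.555, whereas Shisa3 had no neighbour closer than Cxcr3 at 1.19.

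Relatives and partners of the 6 genes were set against all genes, since the 6 were chosen for their rise and almost any list would differ less. Of 51 listed, 34 were tested, of which 0 were called higher and 1 was called lower by limma at an adjusted p of 0.05, against 1.4% and 1.43% of all genes, so the share called was near that of all genes. Their median difference was 0.08 on the log2 scale, against 0.005 over all genes, and 33 of the 34 lay within 2-fold. The exception was Gkn3, a BRICHOS protein of the stomach, at 1.11 ± 0.96 (SE), with 3.78 ± 0.12 in mutants and 2.67 ± 2.07 in controls and limma adjusted p = 0.509.

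In the natriuretic peptide system, 5 of 8 genes were tested. Furin, a protease that cleaves pro-peptides including that of Nppb, was that 1 call: it fell by 0.72 on the log2 scale (SE 0.12, limma adjusted p = 0.0387), with 0.86 ± 0.08 in mutants and 1.58 ± 0.11 in controls (SD, n = 3 each). The call was lost without any 1 of the arrays other than control 3 (adjusted p of 0.0522 to 0.173) and held in 7 of 18 other settings (0.0006 to 0.538), while the difference stayed between -0.90 and -0.61 in all of them. A second Furin probe differed by 0.11 in the other direction. Nppc, the C-type peptide, averaged 1.82 ± 0.07 in mutants and 0.88 ± 0.31 in controls (limma adjusted p = 0.0527), and missed the threshold. Nppa, the atrial peptide and the gene next to Nppb, averaged -0.72 ± 0.05 in mutants and -0.32 ± 0.19 in controls (limma adjusted p = 0.156). The receptor for Nppb, Npr1, and its protease Corin were well above background on none of the 6 arrays, while the C-type receptor Npr2 differed by 0.37 and the clearance receptor Npr3 by -0.05.

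No other family had a called gene. In the Shisa family, 4 of 7 were tested, and the smallest p-values were those of Shisa5 at 0.54, Shisa7 at -0.63 and Shisa2 at -0.30 (limma adjusted p of 0.183, 0.2 and 0.298). Among BRICHOS proteins, 6 of 10 were tested: Itm2b differed by -0.71, Itm2c by 0.36 and Tnmd by 0.71 (adjusted p of 0.146, 0.301 and 0.148). Of the 3 tested RING relatives of Rnf183, Rnf152 differed by -0.60, Rnf225 by -0.75 and Rnf186 by 0.25 (adjusted p of 0.0869, 0.316 and 0.572).

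Among the protein phosphatase 1 genes, all 9 listed were tested. The other inhibitors of the Ppp1r14 group did not pass the test, with differences of -0.26 for Ppp1r14a, 0.14 for Ppp1r14b and 0.12 for Ppp1r14c. The myosin-targeting subunit Ppp1r12a differed by -0.61, with limma adjusted p = 0.0621. In the apolipoprotein L family, 7 of 11 were tested and the smallest p-values were those of Apol9b at 0.31, Apol9a at 0.51 and Apol7c at -0.20 (limma adjusted p of 0.253, 0.261 and 0.592). Apolipoprotein L genes are close copies of each other, and cross-reading between their probes was not tested.

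**Figure D4:**
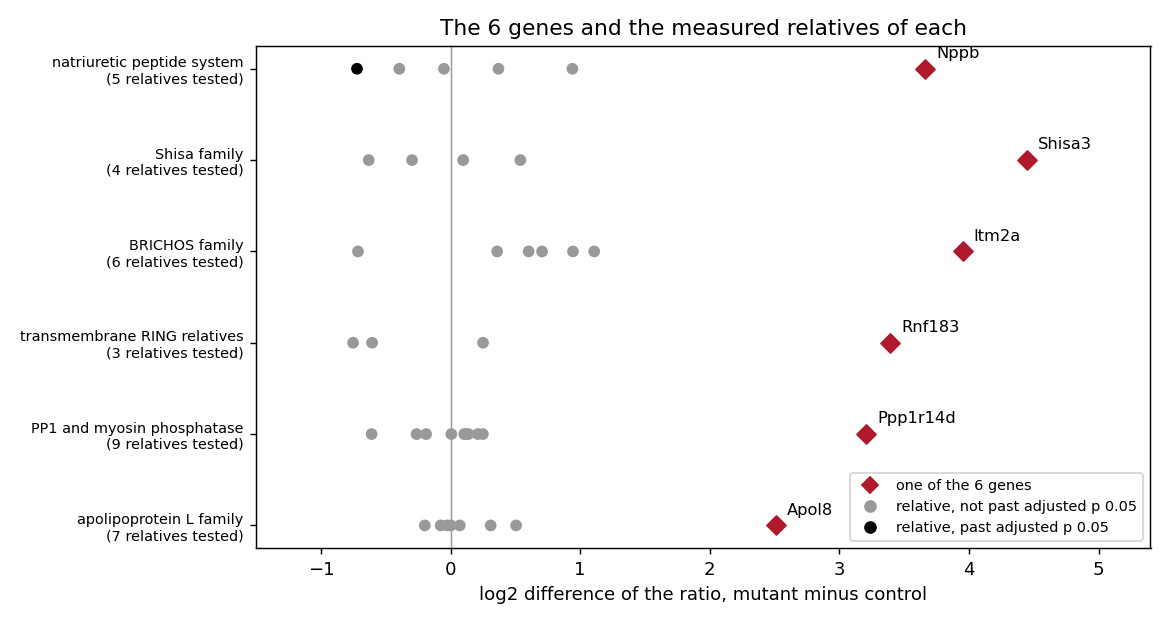
Mutant minus control difference in log2 ratio for the 6 genes and for the 34 tested relatives, grouped by family. The 6, which were chosen for their rise, lie between 2.51 and 4.44, and each relative but Gkn3 (1.11) lies within 2-fold of no difference.

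Genes beside the 6 on the chromosome were set against all genes in the same way. Taking the 2 nearest tested genes on each side, a choice made after the data were seen, limma called 0 of 24 neighbours, against 2.83% of all genes. Their differences ran from -0.69 for Spint1, a protease inhibitor next to Ppp1r14d, to 0.97 for P2ry10, a receptor gene next to Itm2a, and the smallest adjusted p was 0.126. Apol9b, next to Apol8, differed by 0.31.

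The sequence upstream of Nppb is shown because Nppb was the 1 gene of the 6 with a match to either SOX core motif that was searched. It covers chr4:147985650-147985785 of GRCm38.p6 on the plus strand, from the RefSeq promoter table, and ends at the outermost annotated start of the gene. The capitals mark ACAATG, 166 bases before the start site of that table's window, which lies further into the gene.
Nppb upstream: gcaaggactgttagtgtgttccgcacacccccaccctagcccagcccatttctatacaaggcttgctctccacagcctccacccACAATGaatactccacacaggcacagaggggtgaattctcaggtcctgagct

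All 6 genes had a window in that table, from 250 bases before to 50 after the start, with 2 windows for Rnf183. Distances are to the start site of the window. Apart from ACAATG, every match named below lies past the outermost annotated start of its gene. On either strand, ACAATG was in 1 of the 7 windows, against 12.6% of all 32851 windows, and ACAAAG was in 0 of 7, against 18.7%. The AP-1 motif TGANTCA was in 1 of 7 (Rnf183, 35 bases before the start), against 7.81%, and the TEAD motif CATTCC was in 2 of 7 (Nppb and Ppp1r14d), against 14.7%. TATAAA, the core of the TATA box, was in 1 of 7 (Nppb, 31 bases before the start), against 13.6%. No motif was thus common to the 6 genes in these windows, and a match is a run of letters, not a bound site.

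In RNA from a whole sheet, fewer cells of a type and less RNA per cell cannot be told apart, and markers of other cell types are therefore given beside the 6 genes. Of 8 tested macrophage and neutrophil markers, 3 were called higher by limma: Retnlg by 3.69, Cd68 by 1.49 and Csf1r by 0.75 on the log2 scale (adjusted p of 0.00598, 0.0166 and 0.0488). The other 2 Csf1r probes differed by 0.56 and 0.04. All 8 differences were positive, and the mean log2 ratio of the list was -0.13 to 0.92 in mutants and -1.44 to -1.12 in controls. Mutant 1 had the highest list mean, as it had the highest ratios of 5 of the 6 genes. This was not particular to the list: mutant 1 was also the highest mutant for the squamous, endothelial and lymphocyte lists (3.87, 3.22 and -0.16). It was the lowest mutant for the fibroblast and glandular lists (-0.78 and 2.47). Retnlg was among the 3 genes nearest in pattern to Nppb and to Rnf183, by a distance that the common rise dominates. The Cd68 call was lost without mutant 2, mutant 3, control 1 or control 2 (adjusted p of 0.083 to 0.104), and the Csf1r call without any of the arrays other than control 3 (0.0684 to 0.18). Over all other settings the adjusted p ran up to 0.241 for Retnlg, which held in 13 of 17, to 0.433 for Cd68, in 11 of 18, and to 0.579 for Csf1r, in 5 of 18. The differences themselves stayed between 3.33 and 4.85 for Retnlg, 1.39 and 1.69 for Cd68 and 0.62 and 0.82 for Csf1r. The part of these cells in the 6 rises was not tested.

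The other marker lists had no called gene. The mean log2 ratio of 7 lymphocyte markers was -0.62 to -0.16 in mutants and -0.59 to -0.46 in controls, and that of 5 endothelial markers 2.45 to 3.22 in mutants and 1.53 to 2.96 in controls. For 9 markers of fibroblasts and smooth muscle it was -0.78 to -0.41 in mutants and -2.15 to -0.28 in controls, and for 11 of glandular stomach 2.47 to 3.58 in mutants and 0.65 to 3.82 in controls. Control 3 gave the lowest value of the last 3 lists, and it was also the array on which Itm2a was lowest. Whether its tissue held fewer such cells was not tested.

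The size of the 6 rises was compared across settings. Their direction says little, since the 6 were chosen for a large rise. Leaving out an array could not reverse it, as every mutant array lay above every control array. Over up to 18 other settings a gene, none of the values turned round, and the differences ran from 2.28 to 5.17 on the log2 scale. All 6 genes stayed at least 5-fold higher in 16 of the 18 settings, some of which return the reported value by construction. With the sample channel alone, quantile-normalized, Apol8 was 4.87-fold higher, and with a filter for probes well above background on all 6 arrays Shisa3 left the comparison. The authors' deposited table gave Shisa3 log2 ratios of 5.93, 5.36 and 6.71 in its columns for mutants 1, 2 and 3, against 2.06, 2.37 and 0.95 for controls 1, 2 and 3. In that table mutants 1 and 3 appear exchanged: over probes, its mutant 3 correlated at 0.957 with scanned mutant 1 and at 0.868 with scanned mutant 3, and its mutant 1 at 0.963 with scanned mutant 3 and at 0.865 with scanned mutant 1. Its 6.71 for Shisa3 thus stands under mutant 3 where the scanned arrays have their highest value, 6.48, on mutant 1, and all mutant numbers other than those of the deposited columns are those of the scanned arrays.

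**Figure D5:**
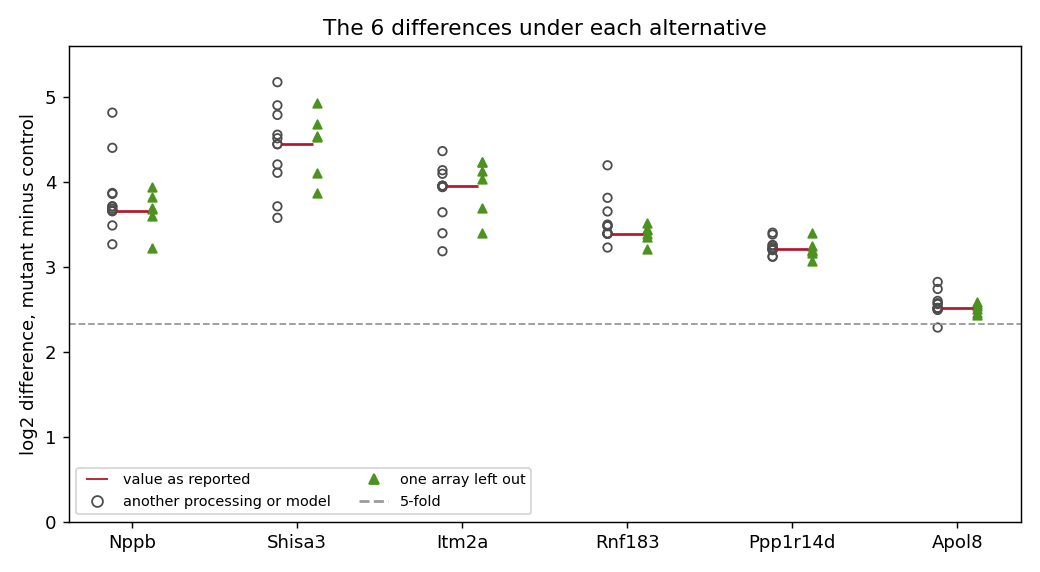
Mutant minus control difference in log2 ratio of each of the 6 genes as reported and under each alternative setting. The values stay above 2.28 throughout, and Shisa3 spreads widest, between 3.58 and 5.17.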

How the data were processed

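Spot intensity values were deposited as Agilent Feature Extraction wrote them (10.5.1.1, and 10.7.3.1 for control 3, per the file headers; 9.1 per the submitters' processing notes). A table of log2 ratios was deposited by the authors, with normalization and centring not given in the sources used here. Mean signals were corrected against the median local background with normexp (offset 50) and normalized by loess within arrays in limma 3.58.1 under R 4.3.3. A probe had to exceed background clearly in its Cy5 signal on 3 or more of the 6 arrays, and the brightest such probe represented a gene. Of 41174 probes, 32725 (79.5%) were named through the RefSeq table of GRCm38.p6. Groups were compared with lmFit and eBayes, two-sided, with Benjamini-Hochberg adjustment over 20566 genes and a threshold of 0.05. The fit has 4 residual degrees of freedom, and the number of arrays limits its precision. No dyes were swapped.

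The 6 genes, their lists of relatives and the marker lists were chosen with earlier results of these data known. The text names the 6 genes, called relatives or the 3 with the smallest p in each list, and the 3 nearest genes in pattern; further relatives, the neighbours and the genes either side of 5-fold were named after their values were seen. On simulated data over 20478 genes, the test found 48% of the genes given a shift of 1 on the log2 scale and 78% of those given a shift of 2, with 7 false calls. Alternatives covered background correction, normalization, filters, the deposited table, blocks, array weights and each array left out.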

Additional observations from a re-analysis of the deposited data

How the results depend on the processing

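The count of genes called over the whole array depended strongly on the setting. The direction of the 6 rises is no counterpart to it, since the 6 were chosen for a large rise on these arrays. Limma called 581 genes as reported, 326 from the scanner software's processed signals and 312 from the sample channel alone. It called 4 with slide as a random block, 1483 with scan day as a block and 8581 with array weights. Those weights were 0.17 for mutant 1 and 0.08 for control 3, against 1.94 to 3.98 for the near-identical arrays. With the near-identical arrays averaged limma called 0, with 2192 genes at an unadjusted p under 0.05. Leaving out 1 array gave 34 (without mutant 2) to 1483 (without control 3). The count was 614 without mutant 1, 36 without mutant 3, 57 without control 1 and 43 without control 2. Replicate numbers did not pair the samples (correlations of 0.005, 0.02 and 0.13 for same-numbered arrays), and with replicate number as a block 137 genes were called. At least 5-fold rises were kept by 5 to 6 of the 6 genes in every setting. Leaving aside settings that return the reported value by construction and the scan day block, which equals leaving out control 3, 76 of 85 values for the 6 genes moved by less than 1 SD between replicates, 9 moved by more and 0 reversed. The highest Nppb value was 28.1-fold, from processed signals, and the highest Rnf183 value 18.3-fold, from the sample channel alone. Why the counts differ was not tested. Weak signals limit Shisa3 (reference channel) and Apol8 probe 1 (sample channel), and 3 arrays a group limit every comparison.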
